A study of Mus musculus with 8 samples.

Results

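The 10 genes described here are transcripts of the integrated stress response that are linked to the transcription factor ATF4: Asns, Atf4, Atf5, Ddit3, Trib3, Chac1, Sesn2, Nupr1, Ppp1r15a and Vldlr. They were measured in mouse liver on Affymetrix Mouse Gene 2.0 ST arrays, which give 1 log2 expression value for each transcript cluster (a set of probes that stands for a gene). The gene names were given in advance, with earlier results of these data known, and the cluster of each gene was chosen by its mean level: of the clusters annotated with exactly that 1 symbol, the one with the highest mean over all 8 arrays was used. Each of the 10 had 1 such cluster, among 23521 single-symbol clusters that stand for 22180 genes, so the level decided nothing here and the choice of cluster did not use the difference between genotypes. Because the gene names were proposed with such results in view, the p-values below describe these arrays and are not independent support.

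The livers came from male mice on the C57BL/6J background, 5 with a knockout of Abhd15 (KO) and 3 wild type (WT). Abhd15 belongs to the alpha/beta hydrolase fold family and has been studied mainly in fat cells. All mice ate normal chow, were 14 weeks old per the design text (the sample labels speak of up to 14 weeks on the diet) and were killed after an overnight fast and 1 hour of refeeding with chow, so both genotypes share the fast and the meal. The labels name no promoter, exon or clone for the knockout, and they speak of 1 mouse per sample without listing animals. The p-values therefore cover only the variation among these samples, which may in part be technical.

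Array medians lay between 2.99 and 3.05, and correlations across all 41345 clusters between arrays were 0.963 to 0.971, where clusters are not independent replicates. The targeted gene, Abhd15, read 5.04 to 5.21 in KO and 5.46 to 5.81 in WT. Its log2 difference was -0.52 (SE 0.129, limma adjusted p = 0.795), and the labels do not place its probes relative to the deletion. A second, dimmer Abhd15 cluster overlapped, at 2.55 to 3.84 in KO and 3.07 to 4.36 in WT (log2 difference -0.68, SE 0.323). KO arrays 1 and 2 stood apart on the first principal component (18.0% of the variance), at 55.2 and 50.8 against 0.220 for the next highest array. On the second component (15.6%) the far array was KO 4, at 70.0 against 10.6 for the next. The hepatocyte marker list averaged 11.2 to 11.5 in KO and 11.4 in all WT arrays. Marker lists of neutrophils, lymphocytes, exocrine pancreas, erythroid cells, adipocytes and skeletal muscle averaged 2.14 to 3.27 in KO and 2.13 to 3.26 in WT, close to or below the array medians.

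The integrated stress response begins with kinases that sense unfolded protein, missing amino acids, viral RNA or lack of heme and phosphorylate the translation factor eIF2. General translation then falls while the mRNA of ATF4 is translated more, and ATF4 switches on genes of amino acid supply, redox balance and, with its target CHOP (encoded by Ddit3), cell death. Liver uses this response to adjust amino acid and lipid metabolism to feeding. Arrays measure mRNA, and eIF2 phosphorylation and ATF4 protein were not measured here.

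ATF4 pairs with C/EBP-family factors on a composite element (CARE), searched here as TGATGNAAN on both strands. The promoter windows, from RefSeq (GRCm38.p6), run from 250 bases before to 50 bases after each annotated start, and all 10 genes matched, with 12 windows because Atf5 and Vldlr have an additional start each. The CARE letters were in 5 of the 12 windows, those of Asns, Chac1, Nupr1, Trib3 and the downstream start of Vldlr. They were in 3.95% of all 32851 windows, and 4.50% of the 27025 genes had them in at least 1 window. The cyclic AMP response element, TGACGTCA, which reads the same on both strands, was in the Ppp1r15a window and in 1.79% of all windows. The windows of Atf4, Sesn2 and Ddit3, both of Atf5 and the upstream one of Vldlr held neither, which says only that these letters are not in these windows. Because ATF4 control is what links these genes, the stretches before the start that carry a match are shown on the strand of the gene, with the match in capitals. They lie at chr6:7693210-7693459 (minus strand) for Asns, at chr2:119351008-119351096 (plus strand) for Chac1, at chr7:126625533-126625621 (minus strand) for Nupr1, at chr19:27216779-27216867 (plus strand) for Vldlr and at chr7:45526269-45526320 (minus strand) for Ppp1r15a.
Asns: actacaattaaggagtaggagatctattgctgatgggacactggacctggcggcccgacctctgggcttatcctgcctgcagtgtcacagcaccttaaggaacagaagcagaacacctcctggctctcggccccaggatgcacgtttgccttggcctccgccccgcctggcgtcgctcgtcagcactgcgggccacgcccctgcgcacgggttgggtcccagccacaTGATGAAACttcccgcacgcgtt
Chac1: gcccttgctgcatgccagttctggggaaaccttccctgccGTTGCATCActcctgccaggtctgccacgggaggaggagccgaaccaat
Nupr1: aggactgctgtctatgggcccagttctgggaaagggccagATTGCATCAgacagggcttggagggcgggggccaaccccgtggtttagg
Vldlr: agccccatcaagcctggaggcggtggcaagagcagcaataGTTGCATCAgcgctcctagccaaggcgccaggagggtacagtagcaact
Ppp1r15a: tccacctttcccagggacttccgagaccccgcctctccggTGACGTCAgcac
Counting from the annotated start, the match of Asns lies at -23 to -15 on the strand of the gene, and those of Chac1 (-194 to -186), Nupr1 (-111 to -103) and Vldlr (-201 to -193) are on the opposite strand. Trib3 has its match, TTTACATCA, after the start, at bases 14 to 22. A match is a description of letters and not a shown binding site.

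Among the 10 genes, Asns was higher in every KO liver than in every WT liver, and the KO and WT arrays of the other 9 overlapped. The median log2 difference over the 10 genes was 0.14, against 0.00 over all single-symbol clusters, with 9 positive and 1 negative. Limma called 0 of the 10 at an adjusted p of 0.05 and 0% of all 23521 clusters. At an unadjusted p under 0.05 there was 1 of the 10 (Asns), beside 6.08% of all clusters. The KO arrays were wholly above the WT arrays in 1.99% of clusters and wholly below in 2.44%, beside 1 and 0 of the 10 genes. In bulk liver RNA, fewer cells of a type and less RNA per cell cannot be told apart. Without KO arrays 1 and 2, 5.43% of clusters were wholly above and 6.17% wholly below, and limma again called 0% of clusters. Asns is among those above by construction, since all 5 of its KO arrays were. The median of the 10 differences was then 0.12.

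**Figure D1:**
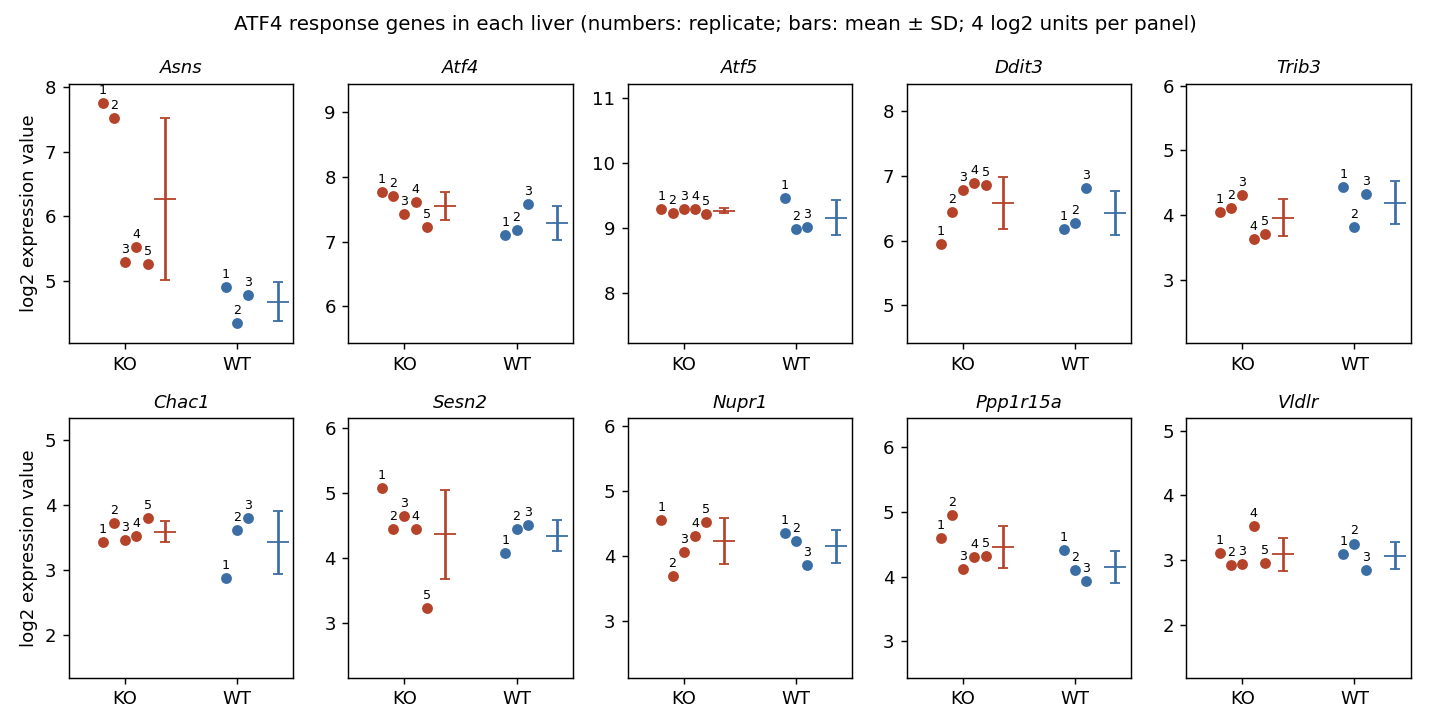
Log2 expression value (vertical axis, 4 log2 units in each panel) of the 10 genes in 5 KO and 3 WT livers, with replicate numbers beside the points and bars for mean ± SD. Asns separates the groups, with KO livers 1 and 2 far above the other KO livers, while the other panels overlap.

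Asns encodes asparagine synthetase, which makes asparagine from aspartate and glutamine and is a standard readout of ATF4 activity. Its log2 value was 7.749, 7.511, 5.290, 5.527 and 5.262 in KO livers 1 to 5, against 4.915, 4.348 and 4.790 in WT livers 1 to 3. KO livers 1 and 2 were the high ones, and the other KO livers sat above WT by a smaller margin, the lowest KO value of 5.262 against the highest WT value of 4.915. The mean was 6.27 ± 1.25 in KO (SD, n = 5) and 4.68 ± 0.298 in WT (SD, n = 3). The log2 difference was 1.58 (SE 0.582), or 3.00-fold, the 8th most positive of 23521 clusters but only the 590th by limma's two-sided p. Its limma adjusted p was 0.795, and the exact permutation p over the 56 ways to split 5 from 3 arrays was 0.107 (two-sided). Without KO arrays 1 and 2 the difference was 0.68 (SE 0.188), or 1.60-fold, with an exact p of 0.1, the smallest that 3 against 3 arrays allow, and an adjusted p of 0.807. The other 3 KO livers averaged 5.36 ± 0.146 (SD).

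Atf4, Atf5 and Ddit3 encode bZIP transcription factors. Atf4 read 7.767, 7.711, 7.420, 7.613 and 7.232 in KO, against 7.108, 7.176 and 7.583 in WT. KO livers 1, 2 and 4 were above all WT livers, WT liver 3 was above KO livers 3 and 5, and the log2 difference was 0.26 (SE 0.17, limma adjusted p = 0.873). Leaving out KO arrays 1 and 2 gave 0.13, and leaving out WT array 3 gave 0.41.

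Atf5, a relative of ATF4 that is also controlled at translation and is abundant in liver, read 9.298, 9.233, 9.289, 9.291 and 9.224 in KO, against 9.468, 8.988 and 9.016 in WT. The 5 KO livers lay within 0.074 of each other, inside the WT range of 0.480, and WT liver 1 was the highest array of all. The log2 difference was 0.11 (SE 0.141), which became 0.27 when WT array 1 was left out and 0.03 when WT array 2 was.

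Ddit3 encodes CHOP, which ATF4 induces and which promotes cell death when stress persists. It read 5.949, 6.441, 6.775, 6.894 and 6.853 in KO, against 6.182, 6.270 and 6.812 in WT. KO liver 1, with the highest Asns, had the lowest Ddit3 of all arrays, and KO livers 3 to 5 lay with WT liver 3 at the top. The log2 difference was 0.16 (SE 0.237, adjusted p = 0.944 with limma), and without KO arrays 1 and 2 it was 0.42 (SE 0.192, adjusted p = 0.818), larger than over all arrays, whereas that of Asns was smaller.

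**Figure D2:**
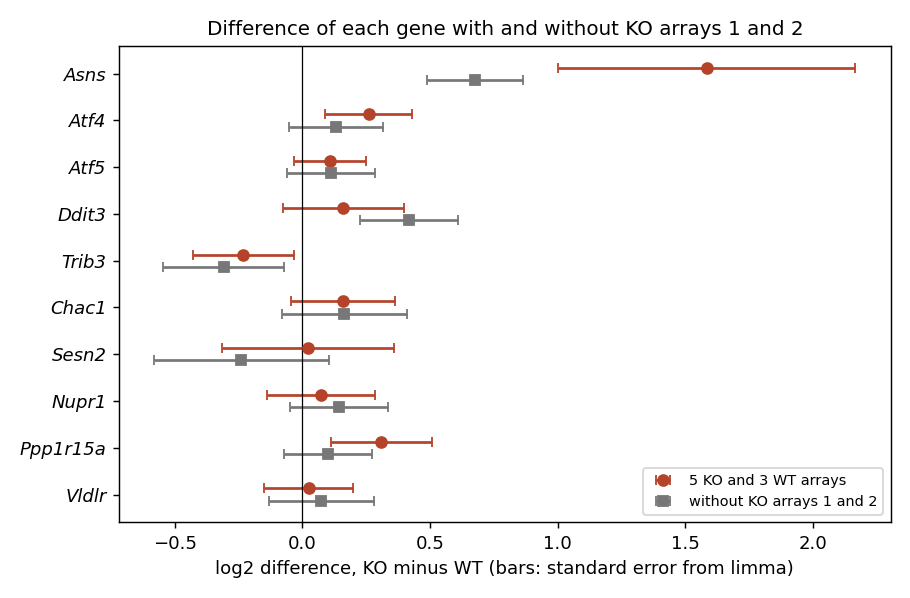
Log2 difference of KO minus WT (horizontal axis) for each of the 10 genes with limma's standard error as bars, over all 8 arrays (circles) and without KO arrays 1 and 2 (squares). The difference of Asns shrinks to 0.68 and that of Ddit3 grows to 0.42 when those arrays are left out.

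Trib3 and Ppp1r15a act as brakes on the response. Trib3 encodes a pseudokinase that binds ATF4 and CHOP and, in liver, has been studied as an inhibitor of AKT. It read 4.041, 4.109, 4.306, 3.626 and 3.714 in KO, against 4.432, 3.810 and 4.327 in WT. It was the 1 gene of the 10 with a lower KO mean, at a log2 difference of -0.23 (SE 0.199, limma adjusted p = 0.892), with overlap. Leaving out WT array 2 gave -0.42, and leaving out WT array 1 gave -0.11.

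Ppp1r15a encodes GADD34, which brings a phosphatase to eIF2 and ends the response. It read 4.591, 4.949, 4.120, 4.308 and 4.311 in KO, against 4.409, 4.099 and 3.930 in WT. KO livers 1 and 2 were the highest arrays, as for Asns, and WT liver 1 was above the other KO livers. The log2 difference of 0.31 (SE 0.198, limma adjusted p = 0.87) was the highest after Asns, and 0.10 without KO arrays 1 and 2.

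Chac1 and Sesn2 tie the response to glutathione and to amino acid sensing. Chac1, which encodes an enzyme that breaks down glutathione, read 3.439, 3.733, 3.460, 3.528 and 3.799 in KO, against 2.881, 3.613 and 3.800 in WT. All KO values lay between the lowest and highest WT value, and the log2 difference of 0.16 (SE 0.204) became -0.11 without WT array 1 and 0.34 without WT array 3. Sesn2 encodes sestrin 2, a leucine sensor that restrains mTORC1. It read 5.075, 4.443, 4.648, 4.443 and 3.235 in KO, against 4.074, 4.454 and 4.513 in WT. KO liver 1 was the highest and KO liver 5 the lowest of all arrays. The KO spread (SD 0.684, n = 5) exceeded that of WT (SD 0.238, n = 3), and the log2 difference of 0.02 (SE 0.336) turned to -0.24 without KO arrays 1 and 2.

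Nupr1 and Vldlr had small differences with wide errors. Nupr1 encodes a small stress-induced chromatin protein. It read 4.554, 3.696, 4.065, 4.306 and 4.524 in KO, against 4.355, 4.239 and 3.869 in WT. The log2 difference was 0.07 (SE 0.211). KO livers 1 and 2, both high for Asns, were the highest and lowest arrays for Nupr1. Vldlr encodes the very low density lipoprotein receptor, which liver makes little of unless stressed. It read 3.109, 2.927, 2.949, 3.531 and 2.953 in KO, against 3.102, 3.259 and 2.848 in WT, and the groups differed by 0.02 on the log2 scale (SE 0.173). Its mean of 3.08 was near the array medians, so a signal above background is not shown. These 2 differences turned sign when single arrays were left out, between -0.07 and 0.21 for Nupr1 and between -0.09 and 0.12 for Vldlr.

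Of the 10 genes, 6 (Trib3, Chac1, Sesn2, Nupr1, Ppp1r15a and Vldlr) had means of 3.08 to 4.36, and 67.3% of all single-symbol clusters had a mean under 5. No detection call comes with these values, and summarised array values of dim clusters are compressed, so small differences in these 6 are not resolved. The 5 genes with CARE letters in their window had log2 differences of 1.58 (Asns), 0.16 (Chac1), 0.07 (Nupr1), 0.02 (Vldlr) and -0.23 (Trib3).

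The array profiles nearest to that of Asns were those of Btg2, Junb, Plk3, Dusp1 and Rasgef1b, of which Btg2, Junb and Dusp1 are on the immediate early list used below. Over 7695 single-symbol clusters outside the 10 genes whose mean reached 5, likeness was measured as the root mean square difference between log2 values over the 8 arrays after subtracting each gene's own mean. The smallest values were 0.370 for Btg2, an antiproliferative early gene, 0.420 for Junb, an AP-1 subunit, 0.440 for Plk3, a stress-activated kinase, 0.441 for Dusp1, a MAP kinase phosphatase, and 0.500 for Rasgef1b, an exchange factor for Ras-family proteins. The median over all compared clusters was 1.20, near the spread of Asns around its own mean (1.18). The other 9 genes of the response, not filtered on their mean, were farther from Asns than these 5, the nearest of 7695 clusters. They ranged from 0.943 for Ppp1r15a and 1.01 for Atf4 to 1.35 for Ddit3. Ppp1r15a, Atf4, Sesn2 (1.08), Atf5 (1.14) and Chac1 (1.19) lay below the median of 1.20, and the others lay above it.

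**Figure D3:**
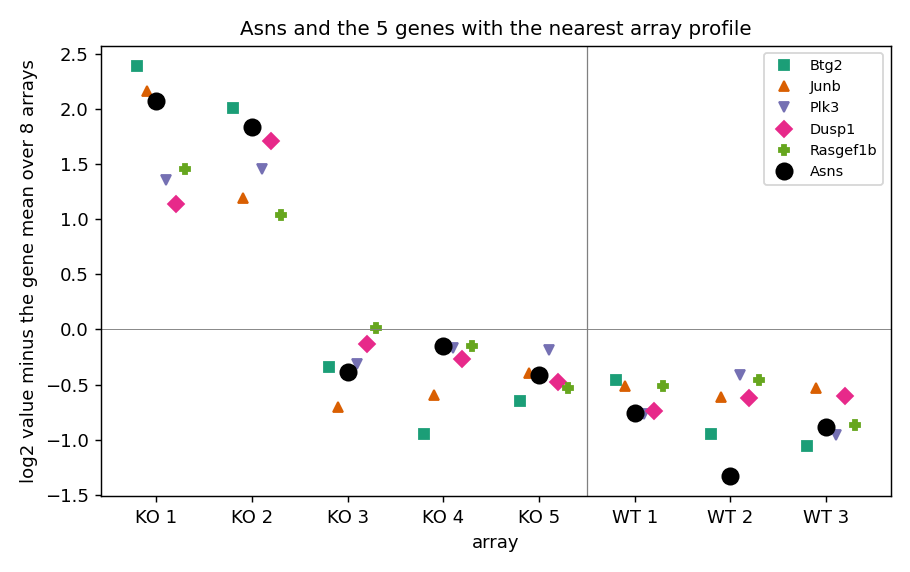
Log2 value minus the gene's mean over 8 arrays (vertical axis) for Asns and the 5 genes with the nearest profile, by array, with KO left of the dividing line and WT right of it. All 6 genes are highest in KO livers 1 and 2, a pattern that the choice by likeness to Asns favours.

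Btg2 read 7.827 and 7.449 in KO livers 1 and 2 and 4.492 to 5.106 in the other KO livers, against 4.384 to 4.984 in WT. Junb in KO livers 3 to 5 (4.865 to 5.176) likewise overlapped WT (4.957 to 5.054). In Plk3 and Dusp1, as in Asns, all 5 KO livers were above WT: Plk3 read 7.090 to 7.230 in KO livers 3 to 5 and 6.443 to 6.988 in WT, and Dusp1 6.988 to 7.331 in KO livers 3 to 5 and 6.722 to 6.854 in WT. The log2 differences over all arrays were 1.31 (SE 0.726) for Btg2, 0.89 (SE 0.587) for Junb, 1.14 (SE 0.428) for Plk3, 1.05 (SE 0.449) for Dusp1 and 0.98 (SE 0.403) for Rasgef1b, with limma adjusted p between 0.795 and 0.873. These 5 genes were picked for likeness to Asns on the same arrays. Their high values in KO livers 1 and 2 and their positive differences largely follow from that choice.

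KO livers 1 and 2 also stood out in the lists of immediate early and fasting genes. The 12 immediate early genes averaged 6.64 and 6.79 in KO livers 1 and 2 and 4.74 to 5.00 in the other KO livers, against 4.69 to 4.85 in WT, and 7 measured fasting genes averaged 9.05 and 8.93 in KO livers 1 and 2 and 7.69 to 7.95 in the other KO livers, against 7.44 to 7.90 in WT. Not every gene of the lists had this pattern. Klf4, a zinc finger transcription factor, read 4.002 and 3.950 in KO livers 1 and 2, below KO livers 4 and 5, and its difference of 0.45 (SE 0.168) was 0.52 without those arrays. Egr1, another such factor, named after its values were seen, read 8.002 and 7.499 in KO livers 1 and 2 and 4.005 to 4.805 in the other KO livers, against 4.924 to 5.063 in WT, so that its difference of 0.72 was -0.66 without them. Igfbp1, a binding protein for insulin-like growth factors that insulin represses, differed by 2.83 (SE 0.985), and by 1.35 without KO arrays 1 and 2. G6pc, which releases glucose, differed by 0.67 (SE 0.374), and by 0.11 without them. Igfbp1 had the widest gap on the fasting list, at 10.257 and 9.562 in KO livers 1 and 2 and 5.656 to 6.884 in the other KO livers. Pdk4, a fasting gene named after its values were seen, read 6.006 and 5.742 in KO livers 1 and 2, below KO livers 4 and 5 and WT liver 1 (6.531). The other fasting genes were highest in KO livers 1 and 2. Pck1 and Ppargc1a, also named after their values were seen, differed from WT by only 0.06 and 0.01. The part of these programmes, or of the state of the 2 livers, in the Asns difference was not tested. The macrophage list averaged 5.44 to 6.64 in KO and 5.74 to 6.14 in WT, and KO livers 1, 2 and 3 (6.52, 6.24 and 6.64) were above all WT livers while KO liver 4 was the lowest. Its part in the Asns difference was not tested either.

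Other genes came from 10 lists with 107 genes, 8 lists of the stress response and its neighbours and the immediate early and fasting lists above. Of these genes, 98 had a single-symbol cluster, and limma called 0 of the 98 at an adjusted p of 0.05. At an unadjusted p under 0.05 there were 10, beside 6.08% of all clusters, and 3 of the 10 (Klf4, Dusp1 and Igfbp1) were immediate early or fasting genes. Among 15 measured genes of the eIF2 kinases and eIF2 machinery, 5 were higher and 10 lower in KO, with a median log2 difference of -0.04. Eif2ak2 encodes PKR, the eIF2 kinase that senses double-stranded RNA and is induced by interferon. It read 6.163, 6.030, 5.988, 5.846 and 6.127 in KO, against 6.405, 6.846 and 6.627 in WT, without overlap. The log2 difference was -0.60 (SE 0.143, limma adjusted p = 0.795), with an exact permutation p of 0.0179, the smallest possible here, and -0.64 without KO arrays 1 and 2.

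Ppp1r15b encodes CReP, the constitutive partner of the eIF2 phosphatase and relative of Ppp1r15a. It read 8.159, 8.252, 8.334, 8.226 and 8.283 in KO, against 7.930, 8.032 and 8.012 in WT, again without overlap. The log2 difference was 0.26 (SE 0.116, limma adjusted p = 0.82), with an exact permutation p of 0.0179, and 0.29 without KO arrays 1 and 2. Eif2ak2 and Ppp1r15b were named because they had the smallest p of their list, so their exact p-values are not independent support. Of all clusters, 1.99% were wholly above and 2.44% wholly below WT. Eif2ak3 (PERK, which senses unfolded protein) and Eif2ak4 (GCN2, which senses uncharged tRNA), named after their values were seen, had log2 differences of 0.15 (SE 0.163) and -0.08 (SE 0.197).

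Of 8 bZIP partners of ATF4, 7 were higher and 1 lower in KO, with a median log2 difference of 0.26. The KO arrays were wholly above WT in 3 of the 8, beside 1.99% of all clusters. Over the 98 measured genes of all 10 lists, 7 were wholly above WT and 1 was wholly below. The lists of amino acid synthesis, amino acid transporters, tRNA synthetases and other ATF4 targets each had 0 genes wholly above WT. Cebpb encodes C/EBP beta, a partner of ATF4 on CARE. It read 7.786, 7.530, 6.948, 6.909 and 6.844 in KO, against 6.435, 6.726 and 6.589 in WT. As with Asns, KO livers 1 and 2 were highest and the other KO livers were above WT. Its log2 difference of 0.62 (SE 0.226, limma adjusted p = 0.795) was 0.32 without those arrays. Atf3, a stress-induced repressor downstream of ATF4, differed by 0.85 (SE 0.32), and by 0.44 without them, with overlap, since KO liver 4 read 4.993 against 5.211 in WT liver 2. The other bZIP partners without overlap were Jund, an AP-1 subunit, at 0.38 (SE 0.157), and Nfe2l2 at 0.18 (SE 0.118). Nfe2l2 encodes the antioxidant factor NRF2, and both genes were named after their values were seen.

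**Figure D4:**
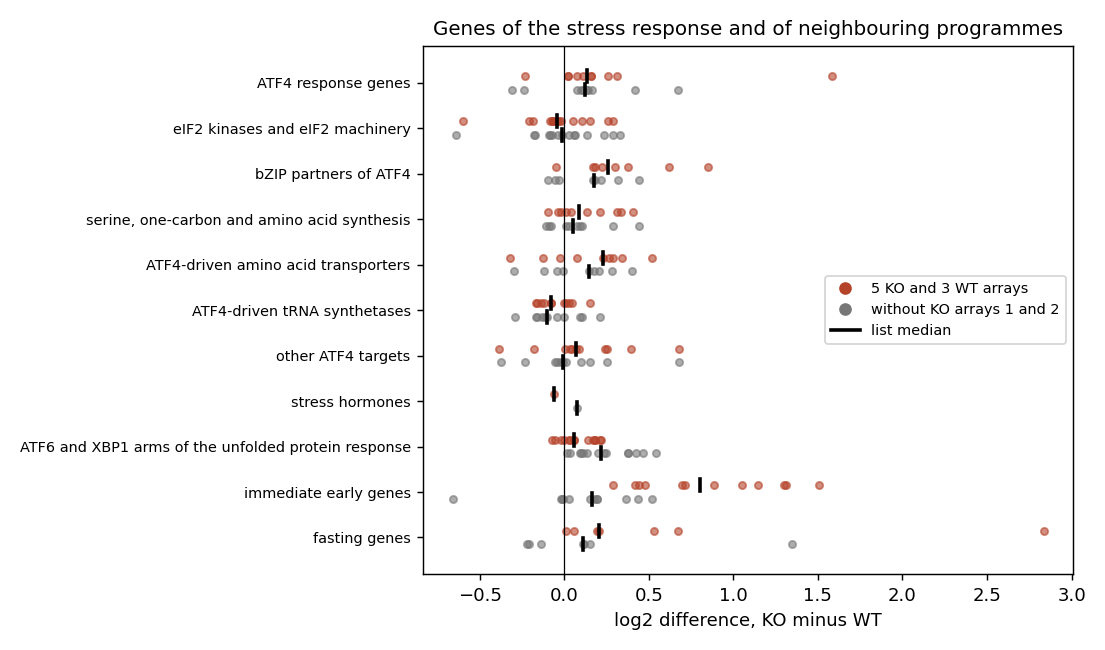
Log2 difference of KO minus WT (horizontal axis) for each gene of the stress response and of the other lists, over all 8 arrays and without KO arrays 1 and 2, with a black bar at each list's median. The immediate early list has the highest median over all arrays, 0.80, which is 0.17 without KO arrays 1 and 2.

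Other genes of amino acid supply that ATF4 drives included enzymes and transporters. Of 10 measured genes of serine, one-carbon and amino acid synthesis, 7 were higher and 3 lower, with a median log2 difference of 0.09. Psph, the last enzyme of serine synthesis, differed by 0.32 (SE 0.171) and Aldh1l2, a mitochondrial folate enzyme at a dim mean of 2.09, by 0.34 (SE 0.172). Of 9 measured amino acid transporters, 6 were higher and 3 lower, with a median of 0.23, though 6 of the 9 had means under 5. Slc1a4, a carrier of alanine and serine, differed by -0.32 (SE 0.151) and Slc7a3, a carrier of arginine and lysine, by 0.34 (SE 0.17). Slc38a2, a glutamine and alanine carrier named after its values were seen, read 9.232 and 8.861 in KO livers 1 and 2 and 7.662 to 7.811 in KO livers 3 to 5, against 7.578 to 7.892 in WT. Its high arrays were those of Asns, but its other KO arrays overlapped WT, and the log2 difference of 0.52 (SE 0.353) was -0.01 without KO arrays 1 and 2.

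Among 11 measured tRNA synthetases, 5 were higher and 6 lower, with a median log2 difference of -0.08. Eprs, for glutamate and proline, differed by 0.15 (SE 0.123), and Yars, for tyrosine, by -0.17 (SE 0.133). Of 11 other ATF4 targets, 9 were higher and 2 lower, with a median of 0.07, or 0.00 without KO arrays 1 and 2. Ddit4, an inhibitor of mTORC1, differed by 0.68 (SE 0.3), with WT liver 3 lowest at 3.835, and Adm2, a secreted peptide at a dim mean of 2.62, by -0.38 (SE 0.142). Fgf21, a liver hormone that ATF4 and PPARA induce, read 3.754, 5.196, 4.689, 4.814 and 4.942 in KO, against 5.474, 4.565 and 4.179 in WT. KO liver 1 was the lowest array for Fgf21 although it was the highest for Asns, and the log2 difference was -0.06 (SE 0.344).

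The list of the ATF6 and XBP1 arms, the other branches of the unfolded protein response, holds mostly chaperones and their helpers, with Xbp1, Ern1 and Atf6 as the sensors and factors of the arms. It had 10 of 14 measured genes higher and 4 lower, with a median log2 difference of 0.06. Over all 8 arrays, KO was wholly above WT in 0 of the 14. Without KO arrays 1 and 2 the median was 0.22, and KO was wholly above WT in 4 of the 14. In that setting 5.43% of all clusters were wholly above, and fewer arrays make separation easier for any gene. KO arrays 1 and 2 also had the lowest list means of the KO arrays, 8.580 and 8.475, against 8.862 to 9.021 in the others. Leaving them out therefore raises the KO side of this list. Hspa5 encodes BiP, the main ER chaperone, and differed by 0.22 (SE 0.18), or 0.43 without those arrays. Hyou1, another ER chaperone, differed by 0.21 (SE 0.173), or 0.38 without them.

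Ddit3 tended to be high in the livers where the mean of this list was high, a relation that did not pass correction. The mean of the 14 genes was 8.580, 8.475, 8.862, 8.890 and 9.021 in KO, against 8.479, 8.751 and 8.820 in WT. Across the 8 livers, Pearson's r between this mean and Ddit3 was 0.787 (exact permutation p = 0.0301, two-sided) and Spearman's rho 0.786 (exact permutation p = 0.0279). The relation was examined for all 10 genes after values had been seen, and the Benjamini-Hochberg adjusted p over the 10 relations was 0.301 for r and 0.279 for rho, past no threshold. Without KO liver 2 and WT liver 1, the livers farthest from the median, r was 0.896, and after centring each genotype on its mean it was 0.777. Over the same 8 livers, r was -0.499 for Asns (exact permutation p = 0.214, adjusted p = 0.429) and -0.652 for Ppp1r15a (exact permutation p = 0.077, adjusted p = 0.385). Chac1 had the sign of Ddit3, with r of 0.517 (exact permutation p = 0.184, adjusted p = 0.429). For Trib3, r was -0.515 (exact permutation p = 0.189, adjusted p = 0.429). The remaining genes ranged from -0.420 for Sesn2 to 0.234 for Nupr1. Without KO liver 2 and WT liver 1, r was -0.590 for Asns, -0.358 for Ppp1r15a and -0.849 for Sesn2. Centred by genotype, r was -0.855 for Asns and -0.895 for Ppp1r15a, of the opposite sign to that of Ddit3, and no p was computed for the centred values. For Asns, KO livers 1 and 2 stand apart from the other livers, so its r also reflects that gap. Ppp1r15a too was highest in KO livers 1 and 2.

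**Figure D5:**
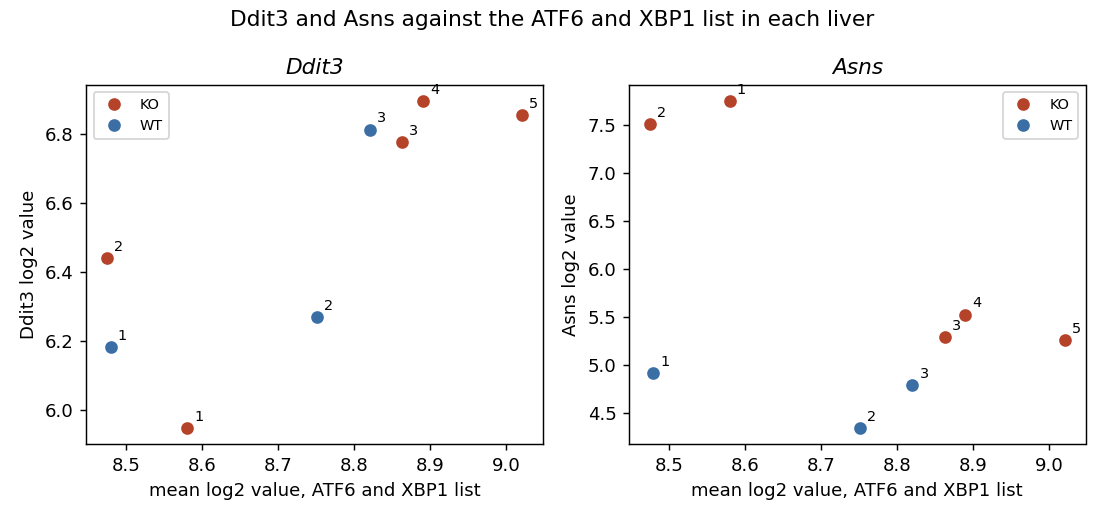
Log2 value of Ddit3 (left) and Asns (right) against the mean log2 value of the 14 genes of the ATF6 and XBP1 list in each liver, with replicate numbers beside the KO and WT points. Ddit3 is lowest in KO 1 and WT 1, which have low list means. KO 2, with the lowest list mean, lies above WT 2 for Ddit3. Asns is high in KO 1 and KO 2 only.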

How the data were processed

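The authors deposited 1 table of log2 expression values for 41345 transcript clusters on 8 arrays. RMA and the oligo package are named per the submitters' processing notes, and Expression Console per the series design text. Which of them made the values is unknown here, and versions, settings and genome build are not stated. RMA usually background-corrects, quantile-normalizes and summarises probes, which compresses dim signals. The log2 scale was taken from the range of the deposited values, 0.409 to 13.27. RNA was extracted with Trizol and 200 ng was labelled, per the labels' protocols.

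Groups and replicate numbers came from the sample titles. Clusters were named through the platform annotation (23521 with 1 symbol, 1814 with several, 16010 not listed), and 23328 matched an Entrez gene in RefSeq's GRCm38.p6 table, which changed 0 symbols. The comparison was KO minus WT in limma 3.58.1 (R 4.3.3, lmFit and eBayes without trend, 6 residual degrees of freedom), two-sided, adjusted by Benjamini-Hochberg over the 23521 clusters. It was tested on simulated data. For single genes the difference in means was also set against every assignment of the arrays (exact permutation test). The number of arrays limits the precision.

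The genes and lists were chosen with earlier results of these data known. Named by rule were the 10 genes, the 2 genes with the smallest p of each list, and the 5 profiles nearest to Asns. Further list genes were named after their values were seen. Alternatives left out arrays, blocked on replicate number, or changed normalization, empirical Bayes settings, the filter on dim clusters, the clusters tested or the cluster per gene. No batch is named in the labels. The 9 listed pathway genes for which no single-symbol cluster was found were not analysed here. Sequences are RefSeq promoter windows, not coordinates of the array probes.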

Additional observations from a re-analysis of the deposited data

Results flagged for a closer look

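The 10 genes and the pathway genes named for the smallest p of their list were searched for a far KO array. No value lay far enough from the other KO arrays to be set apart. In these 29 genes, the gap of the highest or lowest of 5 KO arrays to its neighbour stayed under 0.71 of the KO range. Groups of 3 WT arrays were not examined in this way. This rule looks for 1 far array and does not single out KO arrays 1 and 2, which were far from the others together.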

How the results depend on the processing

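Over 154 recomputed differences of the 10 genes, 142 kept their sign and 12 turned, and 0 passed an adjusted p of 0.05. Changing the empirical Bayes settings, the filter on dim clusters, the clusters tested or the cluster per gene left each difference itself as it was. Those recomputations could not turn a sign, so the count that kept it is partly fixed in advance. Asns stayed positive, from 0.68 without KO arrays 1 and 2 to 2.17 with the replicate block, with limma adjusted p from 0.543 to 0.973, and from 1.21 to 1.83 when 1 array was left out. With the replicate block the differences of Ddit3, Nupr1 and Vldlr were -0.033, -0.049 and -0.075. KO arrays 4 and 5 have no WT array of the same number, so they do not enter the block differences. Those differences rest on numbers 1, 2 and 3 only, where KO arrays 1 and 2 weigh more than over all arrays. Without KO arrays 1 and 2 that of Sesn2 was -0.24. Leaving out 1 array gave -0.11 to 0.34 for Chac1, -0.15 to 0.31 for Sesn2, -0.068 to 0.21 for Nupr1 and -0.087 to 0.12 for Vldlr. The count of genes without overlap ranged from 1 to 3 when 1 array was left out: Atf5 and Ppp1r15a joined Asns without WT array 1, Trib3 without WT array 2 and Atf4 without WT array 3, where fewer WT arrays make separation easier. The median difference was 0.21 when only the 4 genes with a mean of at least 5 were kept. Over all clusters, 0 calls became 1 with the replicate block (Moxd1), 3 with trend and robust settings (Hspa1a, Hspa1b and 1700080G11Rik), 1 among clusters with a mean of at least 5 (Hspa1a) and 3 unnamed ones when every cluster was tested. None is among the 10 genes. Equal replicate numbers did not pair the arrays: the correlations of deviations were -0.048, 0.016 and 0.021 for numbers 1, 2 and 3. The block raised clusters at an unadjusted p under 0.05 to 1818, against 1429 without it. With dim signal in 6 of the 10 genes and 3 WT arrays, small changes are not resolved. The causes of these changes were not tested.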
